A study of Mus musculus with 24 samples.

Results

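The choroid plexus epithelium closes the border between blood and cerebrospinal fluid, and the genes described here build the junctions that seal it. They were 9 genes: the claudins Cldn1, Cldn2 and Cldn3, occludin (Ocln), the plaque protein ZO-1 (Tjp1), the junctional adhesion molecule JAM-A (F11r), E-cadherin (Cdh1), beta-catenin (Ctnnb1) and alpha-E-catenin (Ctnna1). Every probe set whose only gene symbol in the array's annotation was one of these names was taken, which gave 21 probe sets for 9 of the 12393 genes that the array measures with a single symbol.

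Tissue came from C57BL mice aged 78 weeks in which the mouse ApoE gene was replaced by a human allele, called ApoE3-Knockin and ApoE4-Knockin in the labels. All 24 samples thus carried a human ApoE allele, and there was no group with mouse ApoE. Each genotype was fed normal mouse chow or a high fat diet, and each of the 4 combinations had 6 arrays, 3 from males and 3 from females. Choroid plexus was cut from frozen tissue by laser capture microdissection and measured on Affymetrix Mouse430A_2 arrays. The sources used here do not say how the captured areas were chosen, what the diet contained, how long it was fed or whether every array was a different animal, so p-values measure the spread between samples, which may be technical.

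In an epithelium, claudins and occludin span the membrane and join neighbouring cells at the tight junction, and claudins set which ions pass between the cells. ZO-1 ties these proteins to the actin cytoskeleton, and JAM-A is an immunoglobulin-like adhesion protein of the same junction. Just below it, cadherins hold cells together at the adherens junction and bind beta-catenin, which binds alpha-catenin and through it actin. Beta-catenin is also the transcriptional effector of Wnt signalling. Choroid plexus epithelium is known for Cldn1, Cldn2 and Cldn3, and Cldn2 forms a pore for cations and water in leaky epithelia.

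The array values are signals on a linear scale, each with a detection call of Present, Marginal or Absent. Of the 21 probe sets, 15 were Present on all 24 arrays. For Cldn1, Cldn2, Ocln, Tjp1, F11r, Cdh1, Ctnnb1 and Ctnna1 at least 1 probe set was Present on every array, and so were 2 of the 4 for Cldn3. One probe set for Cldn1 (1438850_at) was Absent on 24 of 24 arrays, with signals from 0.4 to 36.6, and was not tested. The other 20 passed a filter of Present on at least 6 arrays, dim ones among them: Cldn1 1438851_x_at was Present on 16, Cldn3 1434651_a_at on 17, Cldn3 1426332_a_at on 13, Ctnna1 1437275_at on 8 and F11r 1436374_x_at on 7 arrays. Transthyretin (Ttr), the main secreted product of this epithelium, read 13080 to 25450 and was not called in any of the 8 comparisons made. Of 25 listed markers of this epithelium, 19 passed the same filter. Markers that did not pass, here and in lists for 8 other cell types, were not examined.

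Between the ApoE4 and ApoE3 mice, 3 of 20 tested tight or adherens junction probe sets were higher in ApoE4 on the high-fat diet, where 10.4% of all probe sets were, and 2 of these on chow, where 4.44% were. Over both directions 26.4% and 10.2% of all were called. They belonged to only 2 genes, Cldn1 and Ctnnb1. Another Cldn1 probe set did not differ on chow and was higher by 0.21 on the high-fat diet, not called (limma, adjusted p = 0.0537). Another Ctnnb1 probe set went the other way. The 5 called differences ran from 0.32 to 0.53 on the log2 scale. No member was called for diet in either genotype. Apart from genotype, Cdh1 was higher in females than in males by 0.94 on the log2 scale.

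The sequences below are the promoters of the 2 genes with probe sets higher in ApoE4, shown because the genotype calls on the separate diets fell in these genes. They span 250 bases before to 50 bases after the annotated start, are written 5′ to 3′ on the gene's strand, and come from RefSeq on GRCm38.p6. Of the 9 genes, 7 had a promoter in that table, and Cdh1 and Ctnna1 had none. Ctnnb1 had 2, of which the first is printed. Capitals mark matches to 4 short motifs searched on both strands. The TATA box was searched as the letters TATAAA. The CCAAT box was searched as its own name spells it. The GC box, which Sp1 factors bind, was searched as GGGCGG. The last was an E-box that Snail factors bind, searched as CAGGTG. No matches overlapped.
Cldn1, chr16:26371790-26372089, minus strand: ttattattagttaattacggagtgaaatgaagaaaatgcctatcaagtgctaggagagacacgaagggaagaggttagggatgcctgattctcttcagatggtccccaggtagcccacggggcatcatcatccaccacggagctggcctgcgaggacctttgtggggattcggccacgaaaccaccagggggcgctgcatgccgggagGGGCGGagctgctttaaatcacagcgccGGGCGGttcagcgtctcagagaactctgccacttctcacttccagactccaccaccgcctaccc
Ctnnb1, chr9:120933150-120933449, plus strand: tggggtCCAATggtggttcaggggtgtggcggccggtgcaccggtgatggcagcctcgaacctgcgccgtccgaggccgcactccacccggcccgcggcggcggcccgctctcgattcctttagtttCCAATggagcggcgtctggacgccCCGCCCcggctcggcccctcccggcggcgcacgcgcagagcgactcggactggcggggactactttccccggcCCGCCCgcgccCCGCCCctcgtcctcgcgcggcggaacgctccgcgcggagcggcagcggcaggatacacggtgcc
The Cldn1 stretch held 2 GC boxes, with first bases at -42 and -14 from the start, and none of the other motifs. The Ctnnb1 stretch held 2 CCAAT boxes at -244 and -123 and 3 GC boxes on the opposite strand at -99, -26 and -15. The second Ctnnb1 promoter differed, with a TATA box at -120, GC boxes at -204, -193 and 28 and no CCAAT box. Over 32851 promoters of this length, 35.7% held a GC box, 37.4% a CCAAT box, 20.2% the E-box and 13.6% a TATA box. The 4 motifs were chosen after results were known, and a match describes letters only.

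Differences were fitted with limma as log2 of the signal plus 16, with 1 mean for each of the 4 groups plus a sex effect, over all 13936 probe sets that passed the filter, and p-values were adjusted over all of them (Benjamini-Hochberg, called under 0.05). Values are given as ± their standard error. On chow, 2 of 20 junction probe sets were higher in ApoE4 and 0 were lower, where 4.44% of all probe sets were higher, 5.81% lower and 10.2% called in all. On the high-fat diet 3 of 20 were higher and 0 lower, against 10.4% higher, 16% lower and 26.4% called over all probe sets. Averaged over the diets, 3 of 20 were higher and 1 lower, against 14.7% and 22.9% of all, or 37.6% in all. The median difference of the 20 was 0.01 on chow, 0.05 on the high-fat diet and 0.04 on average, and that of all probe sets -0.02, -0.06 and -0.04. The members' share called in either direction did not exceed that of all probe sets in any of the 3 comparisons.

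Claudin-1 had 1 probe set that rose in ApoE4 mice on both diets. Cldn1 1450014_at read from 185.3 to 323.9 (median 213.95) in ApoE3 mice on chow and from 265.7 to 380.7 (median 323.7) in ApoE4 mice on chow. On the high-fat diet it read from 203.6 to 296.9 (median 270) in ApoE3 and from 323.8 to 485.8 (median 356.15) in ApoE4 mice. On chow the groups overlapped, with all 6 ApoE4 arrays above the ApoE3 mean, and on the high-fat diet the lowest ApoE4 array read above the highest ApoE3 array. This held for 1 of 20 junction probe sets on that diet and for 0 of 20 on chow, where genotypes did not overlap for 8.52% and 3.26% of all probe sets. The fitted difference was 0.47 ± 0.13 on chow (limma, adjusted p = 0.0209) and 0.53 ± 0.13 on the high-fat diet (adjusted p = 0.00394), or 38.5% and 44.9% higher. Its call on chow was lost without ApoE3 chow replicate 1 or 6 or ApoE4 chow replicate 4, and with the hybridization controls or the Actb 3′ to 5′ ratio as a covariate. On the high-fat diet the call was lost with epithelial or brain marker means as a covariate and without the 4 arrays of dimmest hybridization controls, down to a difference of 0.25 (adjusted p = 0.256).

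Another probe set for the same gene, Cldn1 1437932_a_at, showed no such difference on chow. Its mean signal was 2289 ± 220 (SD, n = 6) in ApoE3 and 2288 ± 204 in ApoE4 mice on chow, and 2260 ± 248 and 2625 ± 322 on the high-fat diet. The difference was 0.00 ± 0.08 on chow, with a 95% interval of -0.17 to 0.17, and 0.21 ± 0.08 on the high-fat diet (limma, adjusted p = 0.0537). The group of ApoE4 mice on the high-fat diet had the highest mean, but its arrays overlapped those of ApoE3 mice. In 5 alternatives, among them 1 probe set per gene (adjusted p = 0.0493) and array weights (adjusted p = 0.0373), this high-fat difference was called. The dim Cldn1 1438851_x_at read between 5.7 and 55.4 over all arrays and was not called in any comparison. In the array maker's naming, the ending _x_at marks probe sets with probes that can also match other transcripts.

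The other claudins of the set gave values near 0. Cldn2 1417231_at read 3817.1 to 5107 over the 24 arrays, with group means of 4436 ± 422 (SD, n = 6), 4559 ± 367, 4368 ± 303 and 4467 ± 457 for ApoE3 chow, ApoE4 chow, ApoE3 high-fat and ApoE4 high-fat. Its genotype difference was 0.04 ± 0.07 on chow and 0.03 ± 0.07 on the high-fat diet, with 95% intervals of -0.10 to 0.19 and -0.12 to 0.17. The 4 groups overlapped throughout, and the second probe set, Cldn2 1417232_at, differed by 0.05 ± 0.14 and 0.16 ± 0.14. Cldn3 had 2 probe sets Present on all arrays, with signals of 204.8 to 400.6 (1451701_x_at) and 213.3 to 367.9 (1460569_x_at). Neither was called, with -0.14 ± 0.11 on each diet for 1451701_x_at and -0.07 ± 0.11 and -0.09 ± 0.11 for 1460569_x_at. The 2 partly detected Cldn3 probe sets differed in sign on the high-fat diet, 0.25 ± 0.14 for 1426332_a_at and -0.16 ± 0.12 for 1434651_a_at. Cldn3 1426332_a_at was Present on 6 of 6 arrays of ApoE4 mice on that diet and on 1 of 6 of ApoE3 mice, while its mean signals were 131 ± 22.9 and 110 ± 30. Under quantile normalization its difference there was 0.47 (limma, adjusted p = 0.0271), so a call for Cldn3 depended on the scaling.

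**Figure D1:**
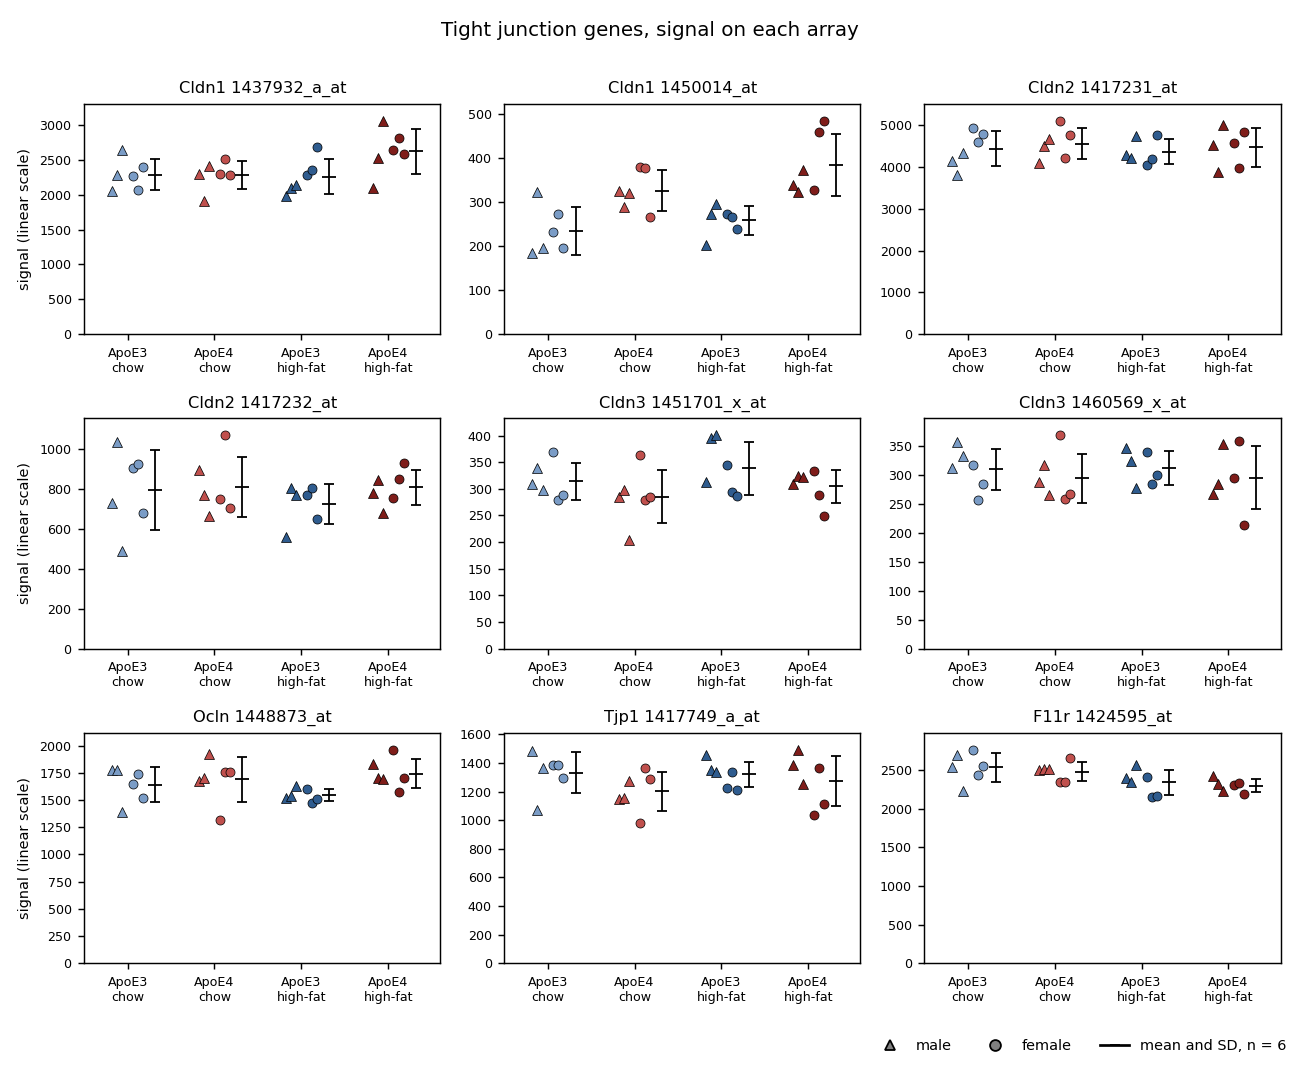
Signals (linear scale, y axis) of 9 tight junction probe sets, each Present on all arrays, on each of the 24 arrays, by genotype and diet (x axis), with triangles for males, circles for females and bars for the mean and SD of 6 arrays. Only Cldn1 1450014_at has ApoE4 groups whose mean lies clearly above ApoE3 on both diets, and Cldn1 1437932_a_at has equal means on chow.

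Occludin, ZO-1 and JAM-A each kept within a narrow range. Ocln 1448873_at had means of 1643 ± 157 (SD, n = 6) in ApoE3 and 1691 ± 204 in ApoE4 mice on chow, and 1546 ± 58.7 and 1744 ± 136 on the high-fat diet. On that diet all 6 ApoE4 arrays lay above the ApoE3 mean, the groups overlapped, and the difference of 0.17 ± 0.08 was not called (limma, adjusted p = 0.0972). It became 0.35 and was called with brain marker means as a covariate (adjusted p = 0.018). Without ApoE4 chow replicate 4, the lowest of all 24 arrays, the difference averaged over diets was 0.14 and was called (adjusted p = 0.0247), against 0.10 with it (adjusted p = 0.131). Tjp1 1417749_a_at read 983.3 to 1492.4 and differed by -0.15 ± 0.09 on chow and -0.06 ± 0.09 on the high-fat diet, neither called. F11r 1424595_at differed by genotype by -0.03 ± 0.06 on chow and -0.02 ± 0.06 on the high-fat diet. Their 95% intervals were -0.15 to 0.09 and -0.14 to 0.09. The second F11r probe set, 1436374_x_at, was Absent on 15 arrays and had intervals several times as wide.

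Beta-catenin had 3 probe sets, all Present on 24 arrays, and they were called in opposite directions. Ctnnb1 1430533_a_at read from 496.9 to 759 (median 662.15) in ApoE3 and from 700.9 to 917.5 (median 813.05) in ApoE4 mice on chow. It read on the high-fat diet from 523.2 to 730.2 (median 582.75) and from 603.3 to 910.7 (median 732.35). All 6 ApoE4 arrays lay above the ApoE3 mean on either diet, with some overlap. The differences were 0.37 ± 0.11 on chow (limma, adjusted p = 0.0284) and 0.32 ± 0.11 on the high-fat diet (adjusted p = 0.0274). The chow call was lost with the Actb ratio as a covariate and without ApoE3 chow replicate 1 or 6 or ApoE4 chow replicate 1 or 2. The high-fat call was lost with the epithelial or brain covariate, without the 4 arrays of dimmest hybridization controls, and without ApoE3 high-fat replicate 4 or 6 or ApoE4 high-fat replicate 5 or 6.

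Ctnnb1 1450008_a_at went the same way. It read from 2694.5 to 3298.8 (median 2823.5) in ApoE3 and from 2992.9 to 3869.2 (median 3528.95) in ApoE4 mice on chow. On the high-fat diet it read from 2105.9 to 3277.6 (median 2405.35) in ApoE3 and from 2616.7 to 3790.2 (median 3366.15) in ApoE4 mice. Here too all 6 ApoE4 arrays were above the ApoE3 mean on each diet, and 2 ApoE3 arrays on the high-fat diet reached into the ApoE4 range. The difference was 0.38 ± 0.09 on the high-fat diet (limma, adjusted p = 0.00426) and 0.26 ± 0.09 on chow, which was not called (adjusted p = 0.063).

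The third, Ctnnb1 1420811_a_at, was lower in ApoE4. It read from 10093.8 to 11442 (median 10828.15) in ApoE3 and from 9290.8 to 11135.4 (median 9780.45) in ApoE4 mice on chow, and from 9868.6 to 10964.1 (median 10472.35) and 9161.9 to 10154.5 (median 9595) on the high-fat diet. The groups overlapped on both diets, and on the high-fat diet 0 of 6 ApoE4 arrays were above the ApoE3 mean. Averaged over diets the difference was -0.12 ± 0.03 and was called lower (limma, adjusted p = 0.0109), while the separate diets gave -0.12 ± 0.05 each (adjusted p = 0.117 and 0.0837). It was no longer called with the mean of the hybridization controls, of epithelial genes or of brain genes in the model, nor after leaving out the 4 arrays whose hybridization controls were dimmest.

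**Figure D2:**
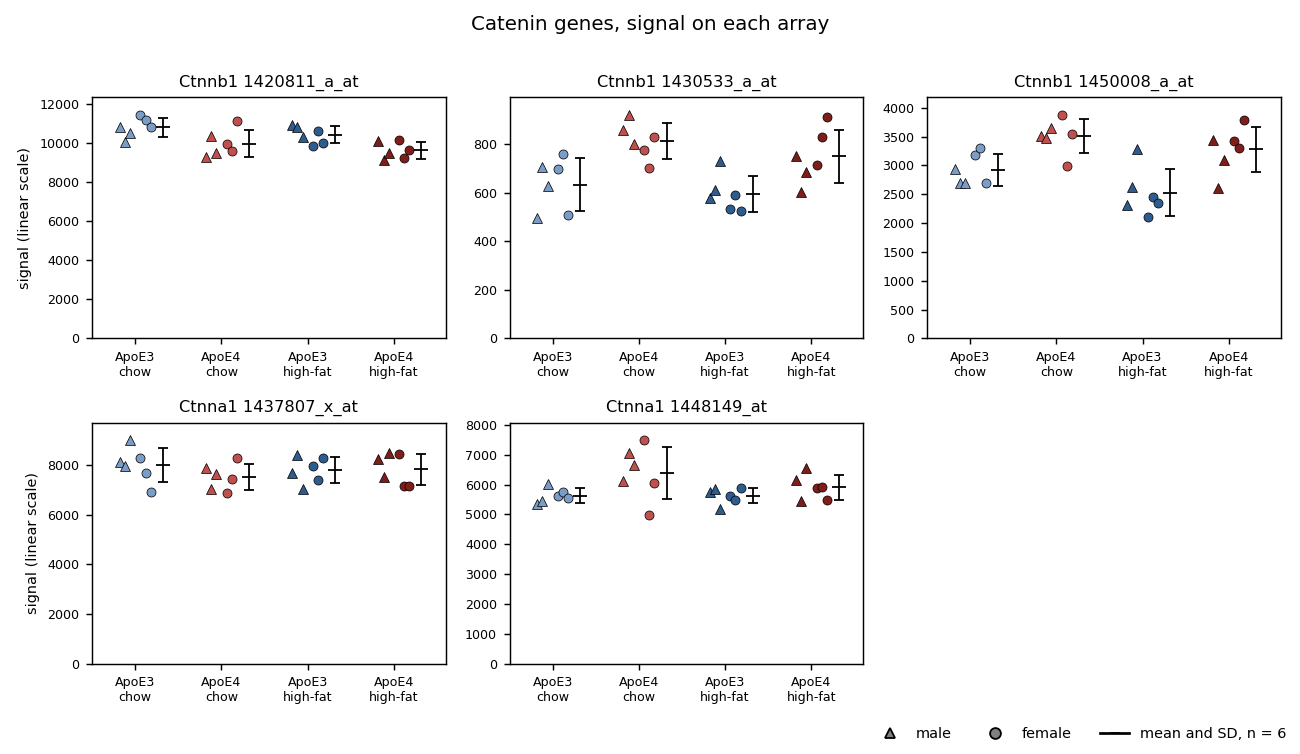
Signals (linear scale, y axis) of the 3 Ctnnb1 probe sets and the 2 Ctnna1 probe sets Present on all arrays, on each of the 24 arrays, by genotype and diet (x axis), with triangles for males, circles for females and bars for the mean and SD of 6 arrays. Ctnnb1 1430533_a_at and 1450008_a_at have higher means in ApoE4 on both diets, and Ctnnb1 1420811_a_at has lower ones.

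Since all probe sets of a gene were read on the same array, their ratio was compared between the genotypes by an exact two-sided permutation test over 6 against 6 arrays, which cannot give a p below 0.00216. These 12 tests were chosen after the values had been seen and were adjusted over the 12. The log2 ratio of Ctnnb1 1450008_a_at to 1420811_a_at had a mean of -1.89 and reached at most -1.76 in ApoE3 mice on chow, and had a mean of -1.51 and went no lower than -1.68 in ApoE4 mice on chow. It ran from -2.23 to -1.65 in ApoE3 and from -1.80 to -1.35 in ApoE4 mice on the high-fat diet. On chow the genotypes did not overlap, and on the high-fat diet 5 of 6 ApoE4 values exceeded all ApoE3 values. The ratio was higher in ApoE4 by 0.38 on chow (exact permutation p = 0.00216, adjusted 0.013) and by 0.49 on the high-fat diet (exact p = 0.00433, adjusted 0.0173). For Ctnnb1 1430533_a_at over 1420811_a_at the differences were 0.49 and 0.44 (adjusted exact p = 0.013 and 0.0195), with 6 and 4 of 6 ApoE4 values above all ApoE3 values. These 4 Ctnnb1 differences were called with a pseudocount of 1 or 64 and with each array left out in turn. The ratios were not tested under quantile normalization or with the Actb ratio, hybridization controls or marker means as covariates.

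The ratio between the 2 Ctnnb1 probe sets that were higher, 1450008_a_at over 1430533_a_at, differed by -0.10 on chow and 0.06 on the high-fat diet (adjusted exact permutation p = 0.413 and 0.358). For Cldn1 1450014_at over 1437932_a_at the ratio was higher in ApoE4 by 0.47 on chow (adjusted exact p = 0.0468) and by 0.32 on the high-fat diet (adjusted exact p = 0.0952), and the chow call was lost with a pseudocount of 64 or without any of 9 of the 12 chow arrays. The Cldn2 pair, 1417232_at over 1417231_at, differed by 0.01 and 0.13 (adjusted exact p = 0.959 and 0.413). For the Ctnna1 pair, 1448149_at over 1437807_x_at, the ratio was higher in ApoE4 by 0.26 on chow and 0.06 on the high-fat diet. Neither was called (adjusted exact p = 0.104 and 0.218). A ratio shows that probe sets of a gene changed unequally, not which of them did not change. Which transcripts of Ctnnb1 or Cldn1 each probe set detects was not analysed here.

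**Figure D3:**
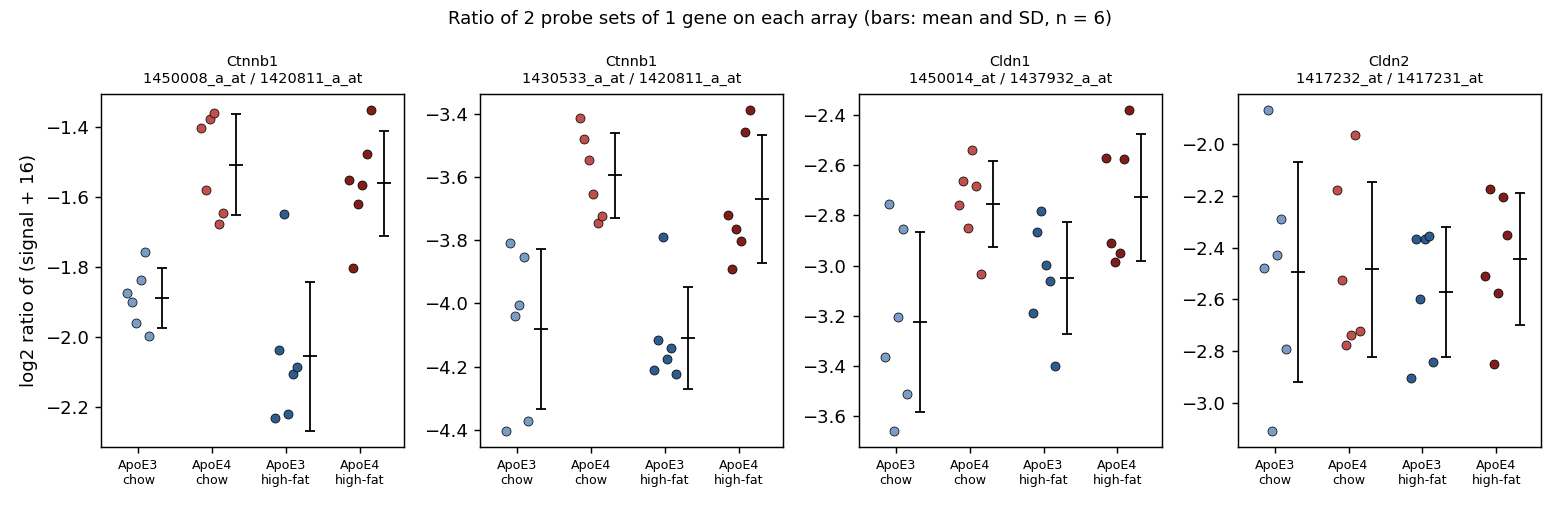
Log2 ratio (y axis) of 2 probe sets of one gene on each of the 24 arrays, by genotype and diet (x axis), with bars for the mean and SD of 6 arrays. Both Ctnnb1 ratios to 1420811_a_at are higher in ApoE4, by 0.38 to 0.49. The Cldn2 ratio overlaps between the genotypes, though 3 of 6 ApoE4 values exceed all ApoE3 values on the high-fat diet.

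Alpha-E-catenin, the actin link of the adherens junction, gave no call. Ctnna1 1448149_at had means of 5626 ± 244 (SD, n = 6) in ApoE3 and 6386 ± 875 in ApoE4 mice on chow, and 5631 ± 257 and 5905 ± 421 on the high-fat diet. The ApoE4 groups had the wider spread and overlapped the ApoE3 groups. The difference of 0.17 ± 0.07 on chow was not called (limma, adjusted p = 0.11), but became 0.24 and was called without ApoE4 chow replicate 5 (adjusted p = 0.0118). It was also called with the hybridization controls, the Actb ratio or the epithelial list as a covariate, at 0.22 to 0.33. Ctnna1 1437807_x_at differed by -0.09 ± 0.06 on chow and 0.00 ± 0.06 on the high-fat diet. E-cadherin, Cdh1 1448261_at, differed by genotype by -0.01 ± 0.16 and 0.08 ± 0.16, with 95% intervals of -0.33 to 0.32 and -0.25 to 0.40.

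**Figure D4:**
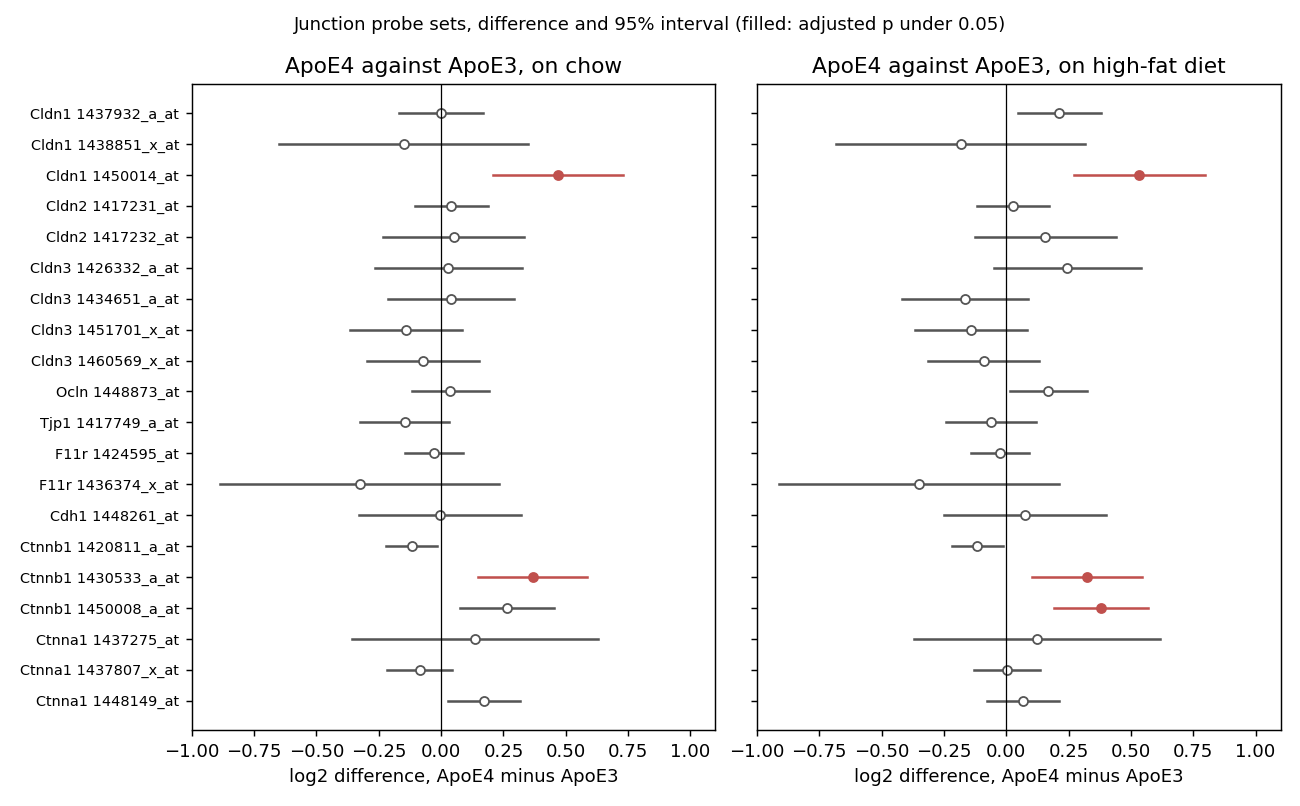
Log2 difference between ApoE4 and ApoE3 (x axis) with its 95% interval for each of the 20 tested junction probe sets (y axis), on chow at left and on the high-fat diet at right, filled red where the adjusted p was under 0.05. On chow 2 probe sets are called higher and on the high-fat diet 3, all of Cldn1 or Ctnnb1, and the dim Cldn1, F11r and Ctnna1 probe sets have the widest intervals.

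Diet moved no junction probe set past the threshold. In ApoE3 mice 0 of 20 were called (0.251% of all probe sets were) and 1 had an unadjusted p under 0.05 in limma (12.2% of all did), Ctnnb1 1450008_a_at, at -0.22 ± 0.09 on the high-fat diet (adjusted p = 0.322). In ApoE4 mice 0 of 20 were called (0% of all, though 923 of the 13936 had an unadjusted p under 0.05), and again 1 had an unadjusted p under 0.05, Cldn1 1437932_a_at at 0.19 ± 0.08 (limma, adjusted p = 0.645). Averaged over genotypes 0 of 20 were called (0.0359% of all) and 4 had an unadjusted p under 0.05, against 9.31% of all. F11r 1424595_at was lower on the high-fat diet by -0.11 ± 0.06 in each genotype, with 0 of 6 ApoE4 arrays above the chow mean, and was not called.

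The test of whether the genotype difference itself depended on diet called 0 of 20 junction probe sets (0% of all), and 0 of 20 had an unadjusted p under 0.05 in limma, while 1322 of all 13936 did. For Cldn1 1450014_at the difference between the diets was 0.06 ± 0.18, for Ctnnb1 1450008_a_at 0.12 ± 0.13 and for Cldn1 1437932_a_at 0.21 ± 0.11. The Cldn1 and Ctnnb1 values on the 2 diets were therefore not shown to differ, though the 95% interval was wide (-0.30 to 0.43 for Cldn1 1450014_at).

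Of the 20 junction probe sets 1 was called by sex, that of Cdh1. E-cadherin is the classical cadherin of epithelia. In males Cdh1 1448261_at read from 260.3 to 475.8 (median 319.6, n = 12) and in females from 448.1 to 893.1 (median 700.85, n = 12). In each of the 4 groups all 3 females read above all 3 males, and 10 of the 12 females lay above every male. Females were higher by 0.94 ± 0.11 on the log2 scale (limma, adjusted p = 5.52e-06), rank 23 by p of the 13936 probe sets, where 1.01% of all were called by sex and 0.646% were higher in females.

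The size of the sex difference varied among the groups. In ApoE3 mice on chow the mean was 318 ± 68.1 (SD, n = 3) in males and 820 ± 114 in females, a ratio of 2.58. In ApoE4 mice on chow it was 411 ± 57.6 and 636 ± 141, a ratio of 1.55. The ratios on the high-fat diet were 1.83 in ApoE3 (305 ± 42 and 559 ± 148) and 2.11 in ApoE4 mice (301 ± 67.4 and 634 ± 143). With 3 against 3 arrays an exact permutation test within a group cannot go below 0.1. In a model with a mean for each sex in each group, chosen after these values were seen, the sex difference did not change past the threshold with genotype (-0.26 ± 0.20, limma, adjusted p = 0.999) or with diet (-0.04 ± 0.20, adjusted p = 0.997). The call for sex held in all 13 alternative settings that could be run on it and with each of 24 arrays left out.

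Among the marker lists a gene was called by sex in 2, macrophage and mural. The stroma list had 0 of 11 genes called by sex (summed over the list as a mean log2 signal, 9.10 to 9.61 in males and 9.16 to 9.86 in females), and the choroid plexus epithelium list 0 of 19 (12.07 to 12.27 and 12.02 to 12.26). The macrophage list had 1 of 14 genes higher in females, with a list mean of 7.36 to 8.01 for males (7.74 ± 0.21, SD, n = 12) and 7.50 to 8.30 for females (7.96 ± 0.24). The mural list had 1 of 10 genes lower in females, with list means of 8.59 ± 0.17 and 8.50 ± 0.22. The part of other cells in the Cdh1 difference was not tested.

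**Figure D5:**
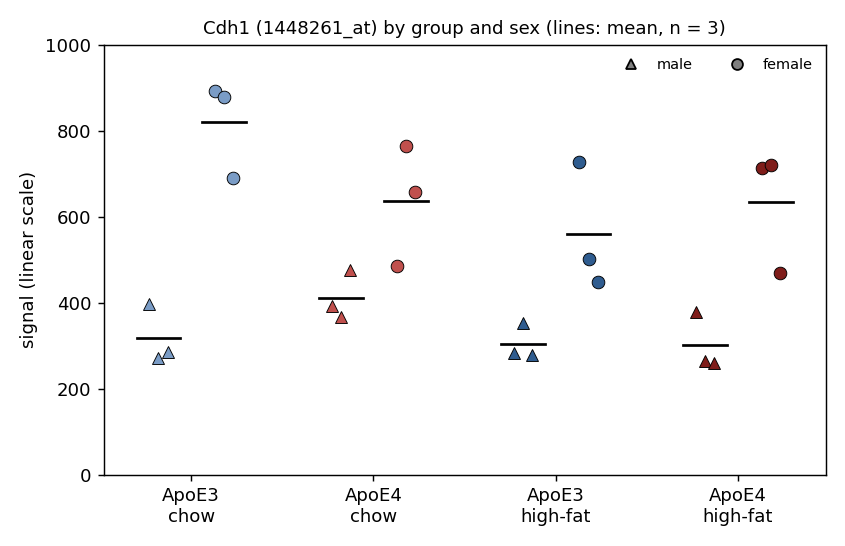
Signal of Cdh1 1448261_at (linear scale, y axis) for each male (triangle) and female (circle) in the 4 groups (x axis), with lines for the mean of 3 arrays. In every group the 3 females lie above the 3 males, and the ratio of means runs from 1.55 to 2.58.

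Across the 24 arrays the genes whose probe sets ranked most like each member are given as a description, since the arrays share genotype and sex, and the probe set of highest mean signal stood for each member. Cdh1 was most like Bgn, the matrix proteoglycan biglycan (Spearman rank correlation 0.827), and A2m, a secreted protease inhibitor (0.824). Chosen for that likeness, they too were higher in females, by 0.97 ± 0.08 and 0.98 ± 0.10 on the log2 scale. Tjp1 was most like Btg1 (0.839) and Abi3bp (0.837), and Cldn2 like Itprid2 (0.796) and Ndufa4 (0.753). Ocln was most like St3gal6 (0.779) and Klhl24 (0.744), Ctnna1 1437807_x_at like Atp6ap2 (0.770) and Tmem47 (0.763), and Ctnnb1 1420811_a_at like Cd81 (0.767) and Riox2 (0.761). For Cldn1 1437932_a_at these were Eola1 (0.735) and Snx6 (0.721), and for Cldn3 1434651_a_at Fgfrl1 (0.735) and Kif1c (0.652). F11r was most like Vcl (0.734), the gene of the actin-binding junction protein vinculin, and Dapk1 (0.716). Vcl was the one of these genes that was also on a junction list.

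Other junction genes were read in 4 lists that held none of the 9 members: other claudins and tetraspan proteins, junctional adhesion proteins, tight junction plaque and polarity proteins, and adherens junction proteins. Of the other claudins, 9 genes were tested, and 2 were lower in ApoE4 on chow and 3 on the high-fat diet, with 0 higher. These were 2 and 5 of 12 probe sets, where 5.81% and 16% of all probe sets were lower. Cldn15, a claudin that forms cation pores in the gut, had means of 117 ± 22.3 (SD, n = 6) in ApoE3 and 59.5 ± 19.4 in ApoE4 mice on chow, and 91.6 ± 28.1 and 48.3 ± 12.2 on the high-fat diet. It was lower in ApoE4, at -0.85 ± 0.19 and -0.72 ± 0.19 (limma, adjusted p = 0.00741 and 0.00752), while on the high-fat diet the call was lost under quantile normalization. Marveld1 1433538_at was lower by -0.43 ± 0.09 on each diet, and its other probe set, 1439381_x_at, by -0.07 ± 0.07 and -0.15 ± 0.07, not called. Cldnd1 was lower on the high-fat diet in 3 probe sets, by -0.36 ± 0.11 to -0.96 ± 0.22. The endothelial claudin Cldn5 (-0.15 ± 0.12 and -0.16 ± 0.12) and Cldn11, also on the myelin marker list (-0.33 ± 0.15 and -0.04 ± 0.15), were not called.

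Among 20 tested plaque and polarity genes, 2 were higher and 1 lower in ApoE4 on chow, and 1 was higher and 7 were lower on the high-fat diet. Each of these genes was called in a single one of the 31 probe sets tested, against 4.44% of all higher and 5.81% lower on chow and 10.4% and 16% on the high-fat diet. Prkcz, an atypical protein kinase C of the Par polarity complex, had means of 226 ± 25.3 (SD, n = 6) in ApoE3 and 321 ± 35.1 in ApoE4 mice on chow, where no arrays overlapped, and rose by 0.48 ± 0.11 (limma, adjusted p = 0.00753). Mpp5, the scaffold PALS1 of the Crumbs complex, rose in probe set 1450113_at by 0.32 ± 0.08 on chow and 0.52 ± 0.08 on the high-fat diet (adjusted p = 0.0127 and 8.28e-05), but its other probe sets gave -0.03 ± 0.12 and -0.18 ± 0.07 on chow and 0.03 ± 0.12 and 0.09 ± 0.07 on the high-fat diet. Lower on the high-fat diet were Arhgap17, a GTPase-activating protein of Cdc42 (-0.49 ± 0.10), Amot 1425907_s_at, the scaffold angiomotin (-0.39 ± 0.10), Tjp3, which encodes ZO-3 (-0.32 ± 0.10), and Arhgef18, a guanine nucleotide exchange factor (-0.19 ± 0.06). The other Amot probe sets, 1427584_at and 1454890_at, gave -0.15 ± 0.13 and -0.07 ± 0.09 and were not called. Tjap1 was the one lower on chow, at -0.26 ± 0.08 (limma, adjusted p = 0.0497), a call kept in 5 of 16 alternatives and in 4 of 24 fits with 1 array left out. Averaged over diets 2 of 31 plaque probe sets were higher and 5 lower, against 14.7% and 22.9% of all. Pard3 was among the lower (-0.29 ± 0.07, limma, adjusted p = 0.00262).

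Arhgap17 was also the one gene of the 4 lists called for diet. Its means were 241 ± 21.3 (SD, n = 6) in ApoE3 and 257 ± 34.9 in ApoE4 mice on chow, and 350 ± 52.6 and 243 ± 18.6 on the high-fat diet. The ApoE3 mice on the high-fat diet had the highest mean, though their arrays (301.4 to 430.4) overlapped those of ApoE4 mice on chow (224.1 to 321.7). In ApoE3 the difference of 0.50 ± 0.10 by diet was called (limma, adjusted p = 0.0291). The genotype comparison on the high-fat diet uses the same ApoE3 arrays. The diet call was lost without any of 7 of the 24 arrays, with the highest adjusted p then 0.106. It was also lost with no detection filter, with only the arrays compared and with brain marker means as a covariate.

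Of 8 tested adhesion genes, 0 were called on chow and 2 were lower on the high-fat diet, Nectin2 1417703_at (-0.42 ± 0.12) and Jam2 1419288_at (-0.49 ± 0.12), while second probe sets gave 0.22 ± 0.16 for Nectin2 and -0.07 ± 0.14 for Jam2. On either diet Jam3 was not called, and averaged over diets Jam3 1423504_at, Present on 10 arrays, was lower (-0.35 ± 0.11, limma, adjusted p = 0.0179). That call was kept in 8 of 13 alternatives and in 24 of 24 fits with 1 array left out. The brighter Jam3 1423503_at, Present on 24 arrays, gave -0.05 ± 0.07 on average and was not called. Of 23 adherens junction genes, 1 was lower on chow, the actin crosslinker Actn1 (1428585_at, -0.26 ± 0.07), and 4 on the high-fat diet: Zyx (-0.35 ± 0.11), Ctnnd2 (-0.50 ± 0.18), Jup, which encodes plakoglobin (-0.38 ± 0.14), and Lmo7 (-0.38 ± 0.12). N-cadherin (Cdh2), VE-cadherin (Cdh5) and p120-catenin (Ctnnd1) were not called on either diet, but averaged over diets Ctnnd1 was lower (-0.37 ± 0.14, limma, adjusted p = 0.0345). On that average Ajuba (0.34 ± 0.11) and Cxadr 1427321_s_at (0.19 ± 0.06) were higher, each kept in 11 of 15 alternatives. The other Cxadr probe sets gave -0.02 ± 0.13 and -0.21 ± 0.12. In all, 1 of 17 adhesion probe sets was higher and 3 lower on average. For adherens genes it was 3 and 7 of 32, against 14.7% and 22.9% of all probe sets. The calls were 2 of 17 adhesion and 4 of 32 adherens probe sets on the high-fat diet, where 16% of all were lower, and 0 and 1 on chow, where 5.81% were. On the high-fat diet the Ctnnd2 call was kept in 8 of 16 alternatives and 12 of 24 fits with 1 array left out, and the Jup call in 11 of 16 and 17 of 24. Quantile normalization changed these high-fat counts. It gave 2 higher and 2 lower plaque genes, 2 higher and 0 lower adhesion genes, 0 higher and 2 lower adherens genes and 0 higher and 2 lower other claudins, and on chow 1 higher other claudin, so the balance of higher to lower in these lists depended on the scaling. The median difference of all probe sets there was -0.06 without and 0.01 with it. Brain marker means as a covariate also removed many of the lower calls on the high-fat diet. These were Marveld1, Cldnd1 1429555_at and 1437399_at, Tjp3, Arhgef18, Nectin2, Jam2, Zyx, Ctnnd2, Jup and Lmo7. With that covariate Cldn15, Cldnd1 1431293_a_at, Arhgap17 and Amot 1425907_s_at stayed called. The part of brain tissue in these calls was not tested further.

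Measures of whole arrays moved with genotype beside all of these results. The share of probe sets called Present was 55.1 ± 1.29% (SD, n = 12) in ApoE3 and 58.6 ± 1.35% in ApoE4 mice, and the median signal 171 ± 7.33 and 152 ± 6.90. The hybridization controls averaged 11.41 ± 0.10 and 11.05 ± 0.24 on the log2 scale, and the log2 ratio of 3′ to 5′ Actb signal 1.92 ± 0.24 and 1.72 ± 0.18. Marker lists differed too, with 7 of 10 mural cell, 6 of 14 macrophage and 6 of 19 epithelial genes lower in ApoE4 averaged over diets, and 2 epithelial genes higher, where 22.9% of all probe sets were lower and 14.7% higher. Of brain genes, 4 of 7 myelin (1 higher), 4 of 9 neuron and 2 of 9 astrocyte genes were lower. The astrocyte count was near the share of all probe sets. The brain mean was 8.12 ± 0.15 (SD, n = 12) in ApoE3 and 7.88 ± 0.17 in ApoE4 mice on the log2 scale. By diet it was 8.02 in ApoE3 and 7.88 in ApoE4 mice on chow, and 8.23 and 7.88 on the high-fat diet. Endothelial genes had 4 of 16 lower and 0 higher, stromal genes 3 of 11 higher and 1 lower, and ependymal genes 1 of 6 higher and 1 lower. The epithelial list mean ranged from 12.12 to 12.27 in ApoE3 and from 12.02 to 12.26 in ApoE4 mice. Fewer cells of a type and less RNA per cell cannot be told apart in such tissue, and the part of these measures in the calls was not tested beyond the models that held them as covariates. Over 14 settings that included these covariates the Cldn1 1450014_at difference averaged over diets stayed called, between 0.31 and 0.58, as did Ctnnb1 1450008_a_at (0.27 to 0.40) and Ctnnb1 1430533_a_at (0.32 to 0.43). With at least 1 of the covariates the calls of Cldn1 1450014_at and Ctnnb1 1430533_a_at on each separate diet were lost, and so was the lower average of Ctnnb1 1420811_a_at.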

How the data were processed

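Members and lists were chosen with earlier results of these data known. The deposited intensity values are linear signals from GCOS 1.4, made by the authors, per the submitters' processing notes. Each array has a trimmed mean of 500.2, as computed here. Each came with the authors' detection call. The sources used here do not name the algorithm. The table lists 22690 probe sets, 64 of them controls (not used), and 20380 have 1 gene symbol.

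Of 22626 probe sets, 13936 Present on at least 6 arrays were fitted as log2(signal + 16) with limma 3.58.1 in R 4.3.3 (4 group means, sex, trend, robust), over all 24 arrays, for 8 comparisons. Folds on this scale understate changes of dim probe sets. On simulated genotype differences on chow, with 200 of 13936 probe sets changed, the fit called 18.2% of changes of 1.2-fold, 73.1% of 1.5-fold and 96.8% of 2-fold. In the data 1428 were called on chow, so these shares may not carry over. Small changes can therefore go uncalled. Exact permutation tests used scipy 1.17.1. Named besides the members were, from 4 other junction lists, up to 5 genes per list and comparison with the smallest p among those called, 10 genes fixed by name of which 2 are not reported here, the 2 genes most like each member by rank correlation, and Ttr. Replicate numbers did not pair samples (r over 0.1 in 6 of 36 same-numbered pairs). Alternatives were another pseudocount (1 or 64), quantile normalization, a filter of 12 Present arrays or none, no sex term, a replicate block, only the arrays compared, array weights, 1 probe set per gene, 5 covariates, and arrays left out. The number of arrays limits the precision.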

Additional observations from a re-analysis of the deposited data

Results flagged for a closer look

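In 84 sets of 6 arrays (21 junction probe sets in 4 groups), 3 had a sample far from the others by Dixon's criterion, and chance gives about 5% of sets. Cldn1 1437932_a_at read 1913.1 in ApoE4 chow replicate 2, a male, against 2291.6 to 2514.6 on the other arrays of its group. Cldn1 1438851_x_at, dim throughout, read 13.9 in ApoE3 high-fat replicate 3, a male, against 29.9 to 38. Ocln 1448873_at read 1314.9 in ApoE4 chow replicate 4, a female, against 1679.6 to 1927.7.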

How the results depend on the processing

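Of the 10 called member values, 5 stayed called in every alternative that fitted their probe set and with every array left out. They were Cldn1 1450014_at, Ctnnb1 1430533_a_at and Ctnnb1 1450008_a_at averaged over diets, Ctnnb1 1450008_a_at on the high-fat diet and Cdh1 by sex. With 1 probe set per gene these Cldn1 and Ctnnb1 probe sets were not fitted, since brighter ones were kept. No called value changed sign, and 338 of 7859 compared values called in neither fit did. Of 43 called values of other junction genes, those of smallest p in their list and comparison, 15 stayed called in every such fit. The count of members called in the genotype average was 4. It ran from 4 to 6 in the alternatives, with 6 (4 higher, 2 lower) under the hybridization control covariate, except that it was 1 with 1 probe set per gene, where the brightest Ctnnb1 probe set was the one kept. On chow, where it was 2, it was 0 with 1 probe set per gene, 1 with the Actb ratio as a covariate and 4 without the 4 arrays whose hybridization controls were dimmest. On the high-fat diet, where it was 3, it was 5 under quantile normalization and with array weights, and 1 with 1 probe set per gene, with the epithelial list as a covariate and without those 4 arrays. The cause was not tested, except that 1 probe set per gene leaves 9 to test. With 1 array left out the count ran from 0 to 4 on chow, from 2 to 4 on the high-fat diet and from 4 to 5 on average, was 1 each time for sex, and 0 each time for diet and the interaction. A replicate block gave counts of 2 on chow, 4 on the high-fat diet and 4 on average, with Cldn1 1437932_a_at added on the high-fat diet (adjusted p = 0.0343), although the numbers did not pair samples. Uncalled values that an alternative called included Tjp1 on average (-0.22) and F11r 1436374_x_at (-0.74), both with the hybridization control covariate, and Cldn3 1460569_x_at on the high-fat diet (-0.44, brain covariate). Dim probe sets had wide intervals.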
